A study of Mus musculus with 6 samples.

Results

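The genes described here are 51 DNA replication factors of the mouse. They were taken from a fixed list of symbols and matched to the rows of the expression table by mouse Ensembl gene ID. All 51 were among the 16665 genes of the table, and 50 of them had a mean of at least 1 FPKM (fragment counts scaled by exon length and library depth) over the libraries, which put them among the 10166 genes tested. They were measured by RNA-seq in RAW264.7, a mouse macrophage-like cell line. The cells were transfected with a miR-125b mimic, a synthetic RNA that raises the level of this microRNA, in 3 libraries (mimic 1, 2 and 3), whose genotype label names miR-125b overexpression. The other 3 libraries carry the label NC (NC 1, 2 and 3) and served as the control. Neither the dose nor the time after transfection was given in the sources used here. Nothing in the labels says whether libraries of 1 group are separate cultures, and the p-values measure the spread between these libraries, which may be technical.

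Before a cell copies its DNA, the origin recognition complex (Orc1 to Orc6) together with Cdc6 and Cdt1 loads the ring-shaped Mcm2 to Mcm7 helicase onto origins, a step called licensing. In S phase Cdc45 and the GINS proteins join the helicase, primase and DNA polymerase alpha lay down primers, and polymerases epsilon and delta extend the leading and lagging strands, held by the PCNA clamp that replication factor C loads. E2F transcription factors drive many of these genes at the transition into S phase, so their RNA is a common readout of proliferation in macrophage lines.

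The RefSeq promoter windows of GRCm38.p6 (the assembly of mm10) covered 250 bases before to 50 bases after each start site and matched 44 of the 51 genes. The letters searched for E2F were TTTCCCGC, TTTGGCGC, TTTCGCGC and TTTGCCGC on both strands. They occurred in 18 of the 44 genes (40.9%), beside 5.15% of the 7761 tested genes with a window and 2.6% of all 27025 genes of the promoter table. Among the licensing genes 8 of 13 held them, and 4 of the 5 helicase genes with a window did. The stretches below show the letters in capitals in these 4 helicase promoters, on the gene's strand. The helicase genes were picked after their expression values were seen, because they varied together across the libraries. Mcm2, whose window held no match, and Mcm4, which had no window, varied in the same way.
Mcm3: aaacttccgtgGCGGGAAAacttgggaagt
Mcm5: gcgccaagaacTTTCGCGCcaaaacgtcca
Mcm6: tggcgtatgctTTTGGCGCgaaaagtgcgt
Mcm7: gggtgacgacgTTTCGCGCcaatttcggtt
The letters began at position 20 of Mcm3, -153 of Mcm5, -110 of Mcm6 and 17 of Mcm7, counted from the start site. In Mcm5 and Mcm6 a further match on the other strand overlapped the one shown. Separate matches, not shown, began at 39 of Mcm3, -47 of Mcm6 and -165 of Mcm7. Mcm7 also had a window at chr5:138171217-138171516, which held no match.

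The whole windows follow for the gene with the smallest p in each role group that had one, again with the E2F letters in capitals. The window of Orc3, an origin recognition subunit, lay at chr4:34614893-34615192 on the minus strand. That of Pold1, the catalytic subunit of polymerase delta, lay at chr7:44548766-44549065 on the minus strand. Lig1, which seals the fragments of the lagging strand, had 3 windows, and the one at chr7:13278576-13278875 on the plus strand was the only one with the letters. Tk1, the thymidine kinase of the salvage pathway, had its window at chr11:117825965-117826264 on the minus strand. Dtl, which marks Cdt1 for destruction on PCNA, had its window at chr1:191575495-191575794 on the minus strand.
Orc3: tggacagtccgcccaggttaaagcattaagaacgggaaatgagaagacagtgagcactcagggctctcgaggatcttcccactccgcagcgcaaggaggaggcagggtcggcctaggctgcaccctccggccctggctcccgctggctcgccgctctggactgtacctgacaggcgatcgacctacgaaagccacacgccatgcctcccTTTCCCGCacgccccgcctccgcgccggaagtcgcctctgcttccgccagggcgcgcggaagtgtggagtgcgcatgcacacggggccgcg
Pold1: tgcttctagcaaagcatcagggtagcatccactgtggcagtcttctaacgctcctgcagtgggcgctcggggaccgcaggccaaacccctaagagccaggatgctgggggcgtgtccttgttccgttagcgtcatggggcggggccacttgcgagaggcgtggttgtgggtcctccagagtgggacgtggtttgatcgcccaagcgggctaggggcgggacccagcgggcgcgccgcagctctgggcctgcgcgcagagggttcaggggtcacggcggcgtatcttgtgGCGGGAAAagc
Lig1: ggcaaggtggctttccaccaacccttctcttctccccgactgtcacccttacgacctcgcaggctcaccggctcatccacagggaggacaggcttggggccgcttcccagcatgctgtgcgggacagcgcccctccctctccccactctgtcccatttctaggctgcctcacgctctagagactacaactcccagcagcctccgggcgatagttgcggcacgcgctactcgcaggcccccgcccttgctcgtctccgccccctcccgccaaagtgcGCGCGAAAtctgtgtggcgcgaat
Tk1: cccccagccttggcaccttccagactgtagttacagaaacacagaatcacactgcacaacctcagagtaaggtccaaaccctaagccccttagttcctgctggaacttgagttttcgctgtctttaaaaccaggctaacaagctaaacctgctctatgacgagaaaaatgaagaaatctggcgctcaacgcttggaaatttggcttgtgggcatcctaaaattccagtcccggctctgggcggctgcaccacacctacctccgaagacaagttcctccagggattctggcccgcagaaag
Dtl: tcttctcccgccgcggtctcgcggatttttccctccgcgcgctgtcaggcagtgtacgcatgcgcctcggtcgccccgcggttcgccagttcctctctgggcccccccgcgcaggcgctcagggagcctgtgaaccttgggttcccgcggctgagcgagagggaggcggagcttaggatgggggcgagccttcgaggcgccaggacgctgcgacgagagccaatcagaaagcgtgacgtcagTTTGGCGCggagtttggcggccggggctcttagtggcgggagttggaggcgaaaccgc
Orc3, Pold1, Lig1 and Dtl each held 1 match, and Tk1 held none. The other 3 nucleotide supply genes held none either. A match is a run of letters and not a measured binding site.

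Depth recovered from the steps between low values lay between 14508547 and 16781682 fragments per library. The table listed 13266 genes above 0 in NC 3 and 15141 to 15470 in the other 5 libraries, and the part of this gap in the results was not tested. All 12 macrophage markers reached 1 FPKM, with summed levels of 7723 to 9279 FPKM in the NC libraries and 6942 to 7180 FPKM in the mimic libraries. None of the fibroblast, epithelial, endothelial or lymphocyte markers did. Of these, 1 of 6 fibroblast, 0 of 6 epithelial, 3 of 6 endothelial and 3 of 7 lymphocyte markers were in the table, and their summed levels reached at most 0.0453, 0.43 and 0.532 FPKM for the fibroblast, endothelial and lymphocyte lists. The part of the lower macrophage marker sum of the mimic libraries in the results was not tested. The libraries NC 3 and mimic 3 stood apart from the others of their groups. The chi-square statistic per gene between recovered fragment counts was 4.49 for NC 1 against NC 2 and 6.4 for mimic 1 against mimic 2. It was 89.8 and 90.5 for NC 3 against the other NC libraries, 23.4 and 26.4 for mimic 3 against the other mimic libraries, and 29.1 for NC 3 against mimic 3. Between the groups it was 46.2 and 59.6 for NC 1 against mimic 1 and mimic 2, and 49.6 and 60.0 for NC 2. So mimic 3 lay nearer to the other mimic libraries than NC 1 and NC 2 did.

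Most of the replication genes stood low in NC 3 and mimic 3, and differed less between the mimic and NC groups. In 36 of the 50 tested genes (72.0%) NC 3 and mimic 3 held the 2 lowest of the 6 values, beside 25.8% of all tested genes. They held the 2 highest in 1 of the 50 (Orc4), beside 9.79%. The median over the 50 genes of the deviation from a gene's own mean, on the log2(FPKM + 1) scale, was 0.17, 0.23 and -0.28 in NC 1, 2 and 3, and 0.13, 0.12 and -0.34 in mimic 1, 2 and 3. Over all tested genes the same medians were 0.03, 0.02 and -0.10, then 0.05, 0.05 and -0.04. So the median of the replication genes was low in 1 library of each group, and the other 4 libraries lay together above. The origin recognition genes differed, with medians of -0.14, -0.17 and -0.07 in NC 1, 2 and 3. In mimic 1, 2 and 3 theirs were 0.21, 0.17 and -0.12. With the trend on exon length and GC content removed from each library, the medians of the 50 genes were 0.21, 0.20 and -0.29 for NC and 0.11, 0.09 and -0.31 for the mimic. In these bulk libraries fewer cells in S phase, less replication RNA per cell and a technical difference between libraries cannot be told apart. The cause of the low values was not tested.

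**Figure D1:**
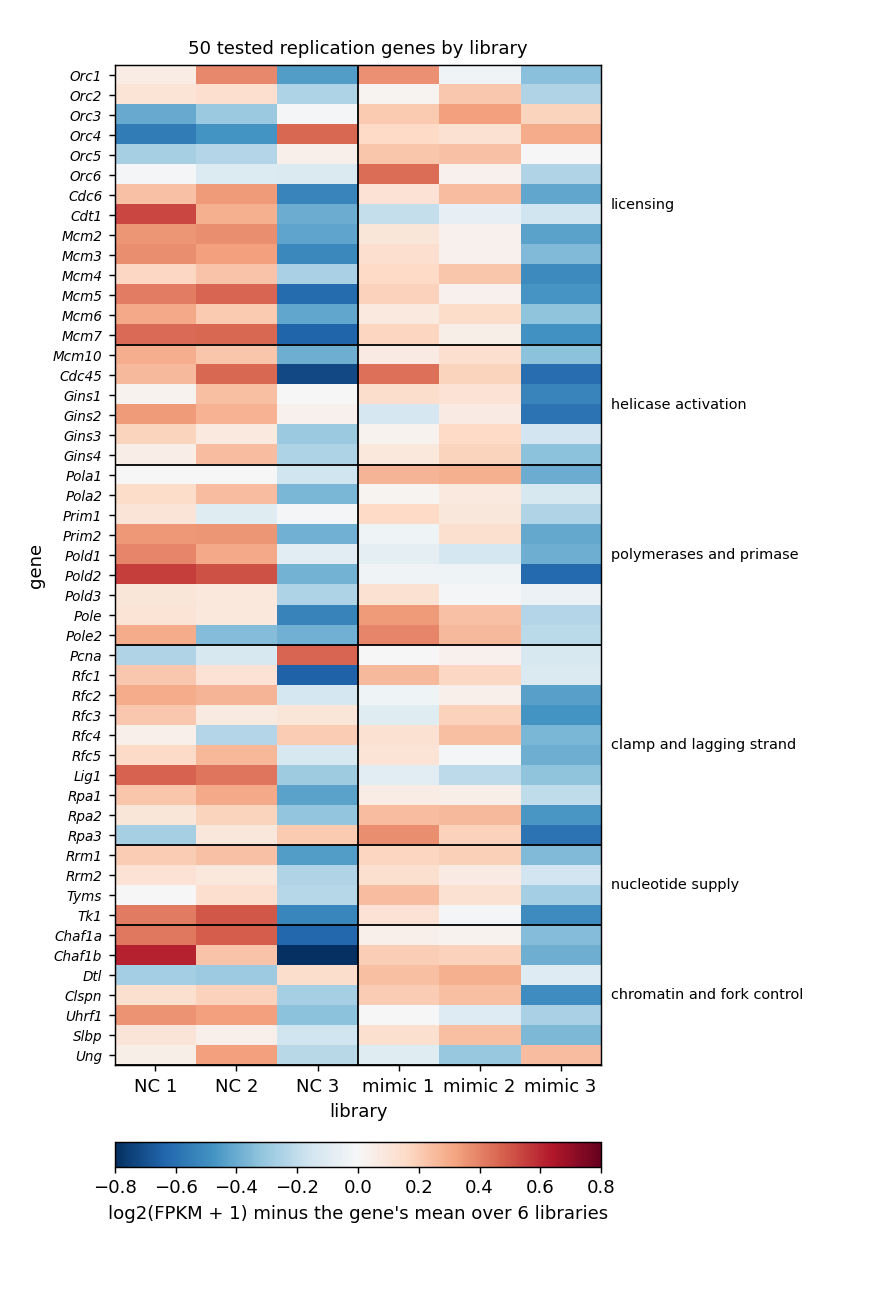
Heat map of the 50 tested replication genes (vertical axis, by role) in the 6 libraries (horizontal axis). Colour is log2(FPKM + 1) minus the gene's mean over the 6 libraries, with the scale ending at 0.8 on either side, and the columns NC 3 and mimic 3 hold the 2 lowest values in 36 genes.

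Between the mimic and NC groups, none of the 50 genes passed the test (limma on log2(FPKM + 1), Benjamini-Hochberg adjusted over 10166 genes, threshold 0.05), and their smallest adjusted p was 0.332. Of all tested genes 0 passed, which is 0.0%. At an unadjusted p under 0.05, 1 replication gene was higher (Orc3) and 1 lower (Pold1), beside 7.96% of all tested genes higher and 5.26% lower. In limma voom on the recovered fragments 0 replication genes passed, and 3 had an unadjusted p under 0.05, beside 13.7% of the genes in that fit. Orc3 alone had groups that did not overlap with the mimic higher, beside 12.6% of tested genes, and no replication gene had such groups with the mimic lower, beside 7.49%. The estimates were above 0 in 20 genes and below 0 in 30. They ran from -0.45 to 0.47, with a median of -0.03 beside 0.04 over all tested genes. With the replicate number as a block, 0 of the 50 passed in limma (smallest adjusted p 0.266), and 6 had an unadjusted p under 0.05 in place of 2, beside 16.5% of tested genes in the same fit.

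**Figure D2:**
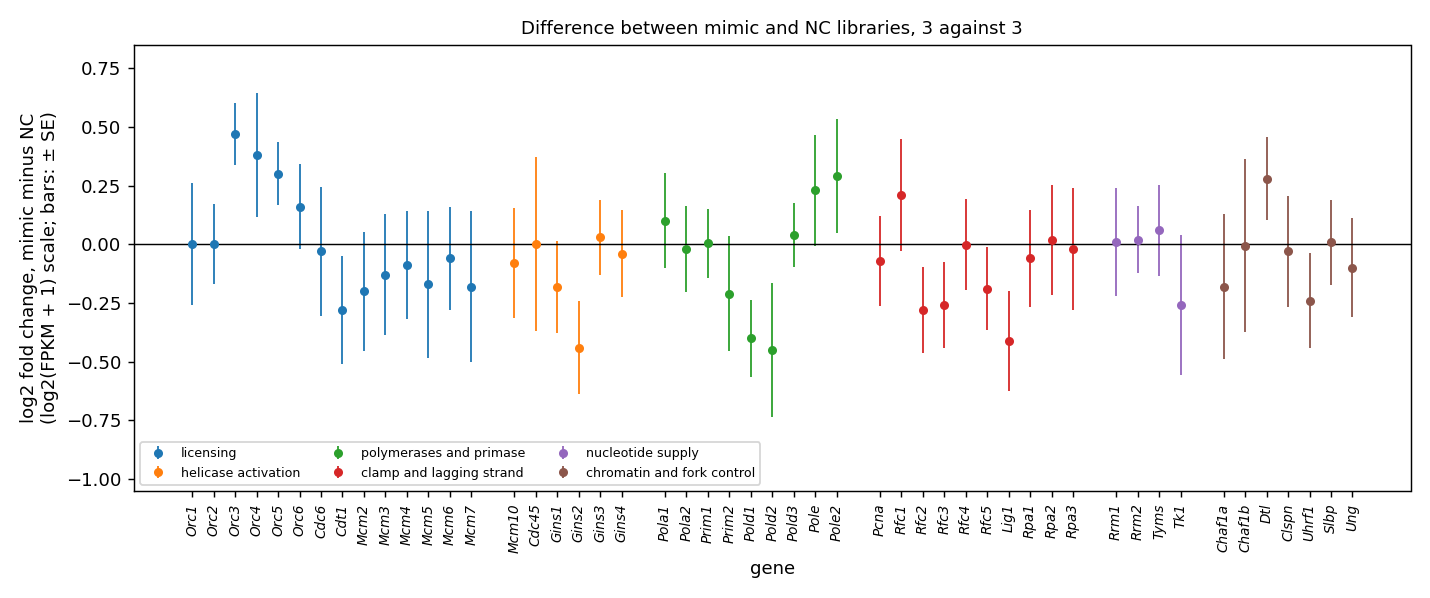
Log2 fold change, mimic minus NC, on the log2(FPKM + 1) scale for each of the 50 tested genes (horizontal axis, coloured by role), with bars of 1 standard error from limma, 3 libraries against 3. The points lie between -0.45 and 0.47, and none passed the adjusted threshold.

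None of the 14 licensing genes passed the test. With all 6 libraries the 6 origin recognition genes had estimates above 0 (median 0.23) and the 6 helicase genes below 0 (median -0.15), but neither split held throughout. The helicase median was -0.0035 without NC 1, 0.0056 without NC 2 and 0.02 without mimic 3, with 5 of the 6 signs changed in each of the last 2 cases, and -0.44 without NC 3. The origin recognition median was 0.06 with the trend on length and GC removed. Orc1 and Orc2, the 2 estimates nearest 0, turned negative there and under quantile and median ratio scaling. Over the 14 genes 6 estimates were above 0 and 8 below, with a median of -0.05 beside 0.04 over all tested genes. NC 3 and mimic 3 held the 2 lowest values in 10 of the 14, in 6 of 6 helicase genes and in 3 of 6 origin recognition genes.

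Orc3, a subunit of the core of the origin recognition complex, read 13.8, 14.9 and 18.3 FPKM in NC 1, 2 and 3 and 21.6, 23.5 and 21.1 FPKM in mimic 1, 2 and 3. Every mimic library lay above every NC library, and NC 3 was the NC library nearest to them. The means were 15.7 ± 2.35 and 22.0 ± 1.25 FPKM (SD, n = 3 each), with a log2 fold change of 0.47 (SE 0.133; limma adjusted p = 0.332). Orc4, an ATP-binding subunit, read 12.9, 13.7 and 27.1 FPKM in NC and 21.8, 21.3 and 24.1 FPKM in the mimic libraries. NC 3 was the highest of the 6, so the groups overlapped, and NC 1 and NC 2 were the lowest. Its log2 fold change was 0.38 (SE 0.262; limma adjusted p = 0.537). Orc5, another ATP-binding subunit, read 11.2, 11.5 and 14.1 FPKM in NC and 16.1, 16.3 and 13.7 FPKM in the mimic libraries. Here NC 3 lay above mimic 3, and the log2 fold change was 0.30 (SE 0.134; limma adjusted p = 0.386). The annotated exons of Orc3, Orc4 and Orc5, joined over all transcripts of each gene, measured 6088, 7458 and 6166 bases. The longest transcripts of these 3 genes held 38.6%, 36.8% and 38.2% GC. After removal of the trend on exon length and GC, their log2 fold changes were 0.22, 0.07 and 0.04. The other origin recognition genes had estimates of 0.0012 (Orc1, the main ATPase subunit), 0.0006 (Orc2) and 0.16 (Orc6).

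Cdt1, the helicase loader that is destroyed in S phase, had the highest mean of the licensing genes. It read 36.7, 30.7 and 18.8 FPKM in NC 1, 2 and 3 and 21.8, 23.9 and 22.3 FPKM in mimic 1, 2 and 3. NC 3 was the lowest of the 6 and the remaining NC libraries the highest, so the groups overlapped. The log2 fold change was -0.28 (SE 0.228; limma adjusted p = 0.609), and -0.06 with the trend removed. Cdc6, the ATPase that works with Cdt1, had an estimate of -0.03.

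The 6 helicase genes were close together, with estimates between -0.20 (Mcm2) and -0.06 (Mcm6). Mcm5 and Mcm7 are given as examples, chosen after their values were seen. Mcm5 read 26.8, 27.9 and 12.7 FPKM in NC and 22.8, 20.5 and 14.1 FPKM in the mimic libraries. Mcm7 read 28.7, 28.8 and 12.9 FPKM in NC and 23.5, 21.4 and 14.5 FPKM in the mimic libraries. For both genes NC 1 and NC 2 were highest, mimic 1 and mimic 2 came next, and NC 3 and mimic 3 were lowest. The log2 fold changes were -0.17 (SE 0.313) for Mcm5 and -0.18 (SE 0.323) for Mcm7, with limma adjusted p = 0.830 and 0.827. The median deviation of the 6 genes was 0.36 and 0.35 in NC 1 and NC 2, 0.15 and 0.04 in mimic 1 and mimic 2, and -0.47 and -0.45 in NC 3 and mimic 3. Once the trend on length and GC was taken out it was 0.28 and 0.30, then 0.15 and 0.09, then -0.41 and -0.43, in the same order.

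**Figure D3:**
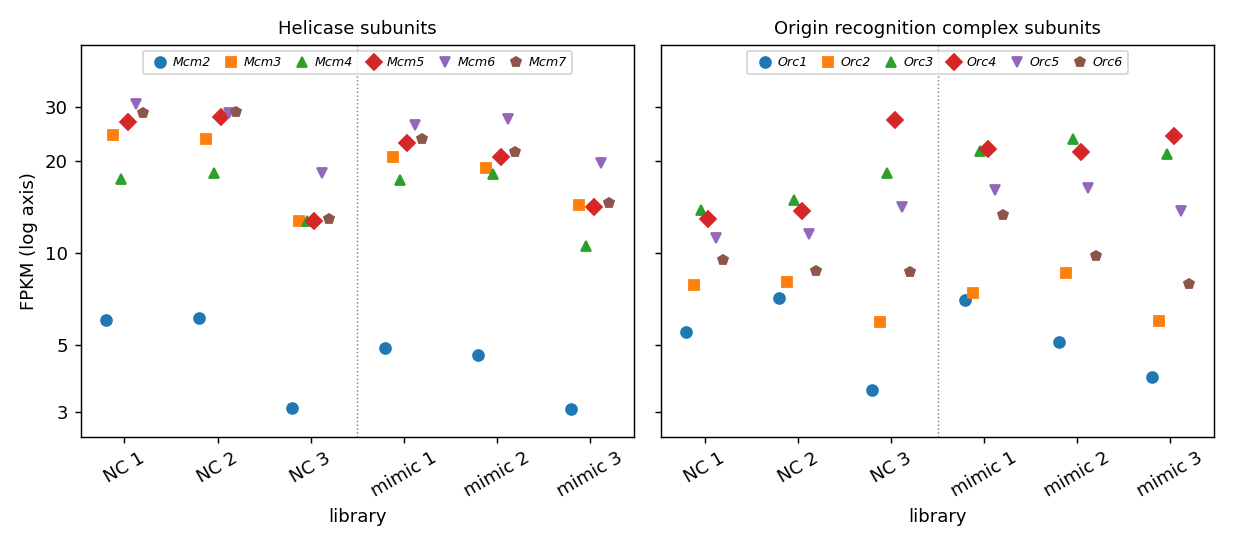
FPKM (log axis) of Mcm2 to Mcm7 (left) and Orc1 to Orc6 (right) in the 6 libraries, 1 point per gene and library. Mcm5 lies at 12.7 and 14.1 FPKM in NC 3 and mimic 3 and between 20.5 and 27.9 FPKM elsewhere, while Orc4 is highest in NC 3, at 27.1 FPKM.

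The 6 genes of helicase activation had 2 estimates above 0 and 4 below, with a median of -0.06, and NC 3 and mimic 3 held the 2 lowest values in 5 of them. Gins2, a GINS subunit, read 4.02, 3.82 and 3.07 FPKM in NC and 2.62, 3.16 and 1.63 FPKM in the mimic libraries. Only mimic 2 lay above an NC library, NC 3. The log2 fold change was -0.44 (SE 0.199; limma adjusted p = 0.398). Of its 4097 exon bases 2758 (67.3%) also belong to Gse1 on the opposite strand, and whether the counting used strand was not given in the sources used here, so reads of the 2 genes cannot be told apart. Gins1 read 13.4, 15.7 and 13.2 FPKM in NC and 14.6, 14.3 and 8.83 FPKM in the mimic libraries. Mimic 3 was the lowest and the other 5 lay close together, with an estimate of -0.18 (SE 0.196; limma adjusted p = 0.706). Mcm10, which helps to start the helicase, read 2.23, 2.08 and 1.01 FPKM in NC and 1.76, 1.9 and 1.1 FPKM in the mimic libraries. Both number 3 libraries were low, and the estimate was -0.08 (SE 0.233; limma adjusted p = 0.901). Gins3, the most abundant of the 6, read 24.2, 22.6 and 17.2 FPKM in NC and 21.8, 23.9 and 19.1 FPKM in the mimic libraries. The groups overlapped throughout, with an estimate of 0.03 (SE 0.159; limma adjusted p = 0.960). Gins4 stood at -0.04 and Cdc45, the helicase cofactor, at 0.0012.

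Of the 9 polymerase and primase genes 5 had an estimate above 0 and 4 below, with a median of 0.0035. NC 3 and mimic 3 held the 2 lowest values in 6 of the 9. The catalytic and regulatory subunits of polymerase delta, Pold1 and Pold2, had the lowest estimates. Pold1 read 14.9, 14.0 and 10.4 FPKM in NC 1, 2 and 3 and 10.5, 10.0 and 8.27 FPKM in mimic 1, 2 and 3. NC 1 and NC 2 were above the rest, and NC 3 lay among the mimic libraries. The means were 13.1 ± 2.37 and 9.61 ± 1.19 FPKM (SD, n = 3 each), with a log2 fold change of -0.40 (SE 0.164; limma adjusted p = 0.364), and -0.21 with the trend removed. Pold2 read 22.3, 21.6 and 11.2 FPKM in NC and 14.6, 14.5 and 9.32 FPKM in the mimic libraries. NC 3 lay below mimic 1 and mimic 2, and the log2 fold change was -0.45 (SE 0.285; limma adjusted p = 0.508). Pold3, a further subunit, stood at 0.04. Pole2, a subunit of polymerase epsilon, read 4.34, 2.42 and 2.34 FPKM in NC and 4.71, 4.2 and 2.75 FPKM in the mimic libraries. The groups overlapped through NC 1 and mimic 3, with an estimate of 0.29 (SE 0.242; limma adjusted p = 0.614). Pole, the catalytic subunit, stood at 0.23, and the polymerase alpha subunits Pola1 and Pola2 at 0.10 and -0.02. Of the primase subunits, Prim1 stood at 0.0035 and Prim2 at -0.21.

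The clamp and lagging-strand group holds 11 genes, of which 10 were tested. Of these, 2 had an estimate above 0 and 8 below, with a median of -0.07, and NC 3 and mimic 3 held the 2 lowest values in 6. Lig1 read 17.9, 17.4 and 10.2 FPKM in NC and 11.9, 10.8 and 9.9 FPKM in the mimic libraries. NC 1 and NC 2 stood above all others, and NC 3 lay inside the mimic range. The means were 15.2 ± 4.32 and 10.9 ± 1.0 FPKM (SD, n = 3 each), with a log2 fold change of -0.41 (SE 0.213; limma adjusted p = 0.446). Pcna, the sliding clamp, was the most abundant replication gene, with 152, 164 and 248 FPKM in NC and 179, 184 and 164 FPKM in the mimic libraries. NC 3 alone stood high, and the estimate of -0.07 (SE 0.192; limma adjusted p = 0.901) sat beside NC 1 and NC 2 values below those of mimic 1 and mimic 2. The annotation holds 2 pseudogenes named after Pcna, neither of them in the table, and how reads shared with them were counted was not given in the sources used here.

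Among the subunits of the clamp loader, Rfc2 read 9.85, 9.66 and 7.0 FPKM in NC and 7.62, 8.09 and 5.55 FPKM in the mimic libraries. Its log2 fold change was -0.28 (SE 0.183; limma adjusted p = 0.519), and NC 3 lay below mimic 1 and mimic 2. Rfc3 read 5.27, 4.68 and 4.76 FPKM in NC and 4.04, 5.14 and 2.88 FPKM in the mimic libraries. Mimic 2 lay among the NC values, and the estimate was -0.26 (SE 0.183; limma adjusted p = 0.554). Rfc1, Rfc4 and Rfc5 stood at 0.21, -0.0018 and -0.19. Of the 1533 exon bases of Rfc4 194 (12.7%) are shared with Eif4a2 on the opposite strand, which read 103 to 157 FPKM. Rfc2 shares 15.1% with Lat2 and Rfc5 10.7% with Wsb2, also on the opposite strand. Strand use in the counting was not given, so reads from the shared bases cannot be assigned. The single-strand binding proteins Rpa1, Rpa2 and Rpa3 stood at -0.06, 0.02 and -0.02. Fen1, the flap endonuclease of the lagging strand, was the gene not tested. It was listed at 0.0794, 0.147 and 0 FPKM in NC and 0.0857, 0.274 and 0 FPKM in the mimic libraries, which is 23 fragments in all. Of its 2422 exon bases 1909 (78.8%) are shared with Gm10143 on the opposite strand, so no statement on the level of Fen1 was made.

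The 4 nucleotide supply genes were lowest in NC 3 and mimic 3 without exception. Of their estimates 3 were above 0 and 1 below, with a median of 0.02. Tk1 read 12.9, 13.7 and 6.25 FPKM in NC and 10.3, 9.36 and 6.35 FPKM in the mimic libraries. NC 1 and NC 2 were highest and the number 3 libraries lowest and alike, with an estimate of -0.26 (SE 0.298; limma adjusted p = 0.718). Tyms, the thymidylate synthase, read 1.38, 1.62 and 1.03 FPKM in NC and 1.83, 1.59 and 0.971 FPKM in the mimic libraries. Its estimate was 0.06 (SE 0.194; limma adjusted p = 0.906), and 1 pseudogene carries its name. Rrm2, the inducible subunit of ribonucleotide reductase, was the most abundant of the 4. It read 31.0, 30.3 and 24.0 FPKM in NC and 31.2, 29.8 and 25.5 FPKM in the mimic libraries. Same-numbered libraries of both groups lay close together, and the estimate was 0.02 (SE 0.142; limma adjusted p = 0.959). Rrm1, the large subunit, read 22.4, 22.9 and 13.9 FPKM in NC and 21.9, 22.2 and 14.9 FPKM in the mimic libraries, with an estimate of 0.0088.

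Of the 7 genes of chromatin and fork control 2 had an estimate above 0 and 5 below, with a median of -0.03, and NC 3 and mimic 3 held the 2 lowest values in 5. Dtl read 4.1, 4.03 and 5.78 FPKM in NC and 6.25, 6.47 and 4.72 FPKM in the mimic libraries. Its number 3 libraries lay between the other NC and the other mimic values, so the groups overlapped. The log2 fold change was 0.28 (SE 0.175; limma adjusted p = 0.509), and -0.02 with the trend removed. Uhrf1, which carries DNA methylation through replication, read 22.1, 21.6 and 13.3 FPKM in NC and 17.0, 15.7 and 14.0 FPKM in the mimic libraries. NC 3 was the lowest of the 6, and the estimate was -0.24 (SE 0.202; limma adjusted p = 0.620). Chaf1a, a subunit of the chromatin assembly factor CAF-1, read 2.6, 2.77 and 0.745 FPKM in NC and 1.77, 1.74 and 1.12 FPKM in the mimic libraries. Its estimate was -0.18 (SE 0.310; limma adjusted p = 0.813), and 4648 of its 8854 exon bases (52.5%) are shared with Ubxn6 on the opposite strand. Its partner Chaf1b stood at -0.0054, Clspn, an adaptor of the replication checkpoint, at -0.03, Slbp, the histone mRNA binding protein, at 0.0081, and Ung, which removes uracil from DNA, at -0.10.

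Which replication genes passed turned on NC 3. Without NC 3, 3 were higher in the mimic libraries (Orc3, Orc4 and Orc5), beside 11.6% of all tested genes, and 5 were lower (Cdt1, Pold1, Pold2, Lig1 and Uhrf1), beside 12.2%. The log2 fold changes were then 0.58, 0.71 and 0.40 for Orc3, Orc4 and Orc5, with limma adjusted p = 0.00796, 0.00608 and 0.0319. They were -0.55, -0.55, -0.76, -0.65 and -0.47 for Cdt1, Pold1, Pold2, Lig1 and Uhrf1, with limma adjusted p = 0.0130, 0.0205, 0.0311, 0.00825 and 0.0206. In each of these 8 genes the omitted NC 3 value lay nearer to the mimic mean than to the mean of NC 1 and NC 2, as it did in 2003 of the 2412 genes (83.0%) that passed without NC 3. Passing only without NC 3 favours such genes, so nothing is read from this count. Whether or not they passed, it held for 45 of the 50 tested replication genes (90.0%) and for 65.7% of all tested genes. The mimic mean includes mimic 3, which was also low in most replication genes, so nothing is read from these shares either. Without NC 3 but with the length and GC trend removed, 0 replication genes passed in limma, beside 0.77% of tested genes that passed higher and 2.33% lower. In that fit 12 of the 50 had an unadjusted p under 0.05, a share near the 23.7% of all tested genes.

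The median of the 50 genes moved to either side of 0 with the library left out. It was -0.22 without NC 3 and 0.11 without mimic 3, and between -0.12 and 0.03 without any other single library. Without both number 3 libraries, a comparison of 2 against 2 added after the data were seen, the median was -0.05 and 21 genes passed. Higher in the mimic libraries were 6 genes (Orc3, Orc4, Orc5, Pola1, Pcna and Dtl), beside 23.1% of tested genes. Lower were 15 genes, beside 19.9%, among them the helicase genes Mcm2 (-0.30), Mcm3 (-0.27), Mcm5 (-0.33) and Mcm7 (-0.34), and Cdt1 (-0.54), Pold2 (-0.56) and Lig1 (-0.60). The other 8 were Gins2, Prim2, Pold1, Rfc2, Rpa1, Tk1, Chaf1a and Uhrf1. Limma adjusted p lay between 0.00127 and 0.0478 over the 21. With the trend also removed, 6 genes passed: Rpa2 was higher (0.28), beside 9.0% of tested genes, and Prim2, Lig1, Rpa1, Rrm1 and Tk1 were lower (-0.58, -0.39, -0.23, -0.38 and -0.29), beside 10.5%. Of these, Prim2, Lig1, Rpa1 and Tk1 were among the 15 that passed lower with the trend in place.

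**Figure D4:**
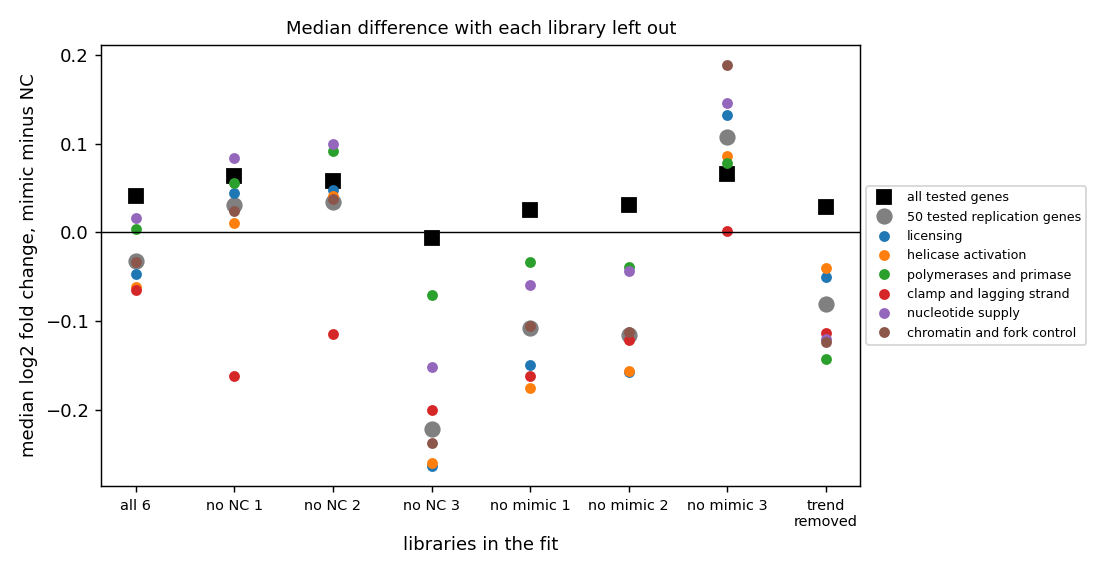
Median log2 fold change, mimic minus NC, of all tested genes (black squares), the 50 tested replication genes (grey) and their role groups (colours), with all 6 libraries, with 1 library left out, or after removal of the length and GC trend. The grey point lies at -0.22 without NC 3 and at 0.11 without mimic 3.

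The remaining genes of the pathway were read from 3 further lists. Of 43 further fork and origin factors 41 were tested and 0 passed in limma, with 26 estimates above 0, 15 below and a median of 0.10. At an unadjusted p under 0.05, 3 were higher and 0 lower: Rmi1, of the complex that dissolves crossed DNA strands, at 0.48 (SE 0.158), Mcmbp, a helicase binding protein, at 0.33 (SE 0.131), and Atr, the checkpoint kinase, at 0.55 (SE 0.226). The shares over all tested genes were 7.96% and 5.26%. NC 3 and mimic 3 held the 2 lowest values in 15 of the 41 (36.6%), beside 25.8% of tested genes. Of 31 further nucleotide supply genes 30 were tested and 0 passed in limma, with a median of 0.02. An unadjusted p under 0.05 was reached by 4 of them with the mimic lower, beside 5.26% of tested genes, and by 0 with it higher, beside 7.96%. The number 3 libraries were the 2 lowest in 12 of the 30 (40.0%). Guk1, the guanylate kinase, had means of 10.3 ± 1.3 FPKM in NC and 6.22 ± 1.19 FPKM in the mimic libraries (SD, n = 3 each), a difference of -0.66 (SE 0.160; limma adjusted p = 0.332). Impdh2, of guanine nucleotide synthesis, stood at -0.32 (SE 0.119).

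Of 22 regulators of S phase 21 were tested and 0 passed in limma, with 14 estimates above 0, 7 below and a median of 0.10. The number 3 libraries were the 2 lowest in 10 (47.6%). Ccne1, the cyclin that starts S phase, read 7.37, 8.36 and 7.23 FPKM in NC and 4.6, 4.89 and 4.69 FPKM in the mimic libraries. The groups did not overlap, and NC 3 lay with the NC libraries, unlike in most replication genes. The difference was -0.59 (SE 0.116; limma adjusted p = 0.332), and -0.44 with the trend removed. Without NC 3 it was -0.63 (limma adjusted p = 0.00922). Cdkn1a, the inhibitor p21, stood at -0.37 (SE 0.141) and Rbl2, a pocket protein that binds E2F, at 0.30 (SE 0.115). An unadjusted p under 0.05 was reached by 1 of the 21 genes with the mimic higher, beside 7.96% of tested genes, and by 2 with it lower, beside 5.26%.

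The E2F letters were found both in replication genes that were low in the number 3 libraries and in those that were not. NC 3 and mimic 3 held the 2 lowest values in 12 of the 18 genes with the letters and in 18 of the 25 tested genes with a window and no match. The median log2 fold changes were -0.05 and -0.0018. CCAAT, searched on both strands, was in 28 of the 44 genes (63.6%), beside 43.7% of tested genes with a window, and TTTGAA, the core of the CHR element, in 5 (11.4%), beside 14.4%. No test was made of these shares.

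The mature miR-125b-5p of the mouse is shown with its seed in capitals, to be read against the sites in the transcripts. The labels do not say which arm the mimic holds.
mmu-miR-125b-5p: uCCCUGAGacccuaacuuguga
For each gene the longest 3′ UTR of the annotation was searched for CTCAGGGA, CTCAGGG or TCAGGGA, and the last 2 counted only where the longer one was absent. Of the 50 tested replication genes 7 held one (14.0%), beside 24.0% of 9313 tested genes, with a median UTR length of 720 beside 1334 bases. The longest match occurred in Orc2 (chr1:58463933-58463940), Rfc5 (chr5:117378970-117378977) and Chaf1a (chr17:56068487-56068494), shown on the gene's strand with the site in capitals.
Orc2: tgtacagtgtgCTCAGGGAttctttggaac
Rfc5: gtaaaatgcatCTCAGGGAggtgctttcag
Chaf1a: attgctggggaCTCAGGGAaaggaatgggt
Shorter matches were in Cdc6, Mcm10, Rfc2 and Gins3. Over the 7 genes with a site the estimates had a median of -0.08, and over the other tested replication genes one of -0.02. Over all tested genes the medians were 0.07 with a site and 0.02 without. None of the 7 passed the limma test, and Orc2, which held the longest match, stood at 0.0006. Of its 3857 exon bases 1150 (29.8%) are shared with Nif3l1 on the opposite strand, so reads from these bases cannot be assigned. The 8 genes that passed without NC 3 held no site, and nothing is read from that list here either.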

How the data were processed

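RNA-seq of RAW264.7 cells gave 6 libraries, 3 transfected with a miR-125b mimic and 3 labelled NC. The authors deposited 1 table of FPKM values per gene. The submitters' processing notes name fastp, HISAT2, DESeq2 and the build mm10. Versions, annotation, counting and strand setting were not given in the sources used here. FPKM is not a count, so the test was run on log2(FPKM + 1), a scale that understates differences of low genes. Genes with a mean of at least 1 FPKM were compared with limma 3.58.1 in R 4.3.3 (mean-variance trend, group as the only term, two-sided, Benjamini-Hochberg over all 10166 tested genes, threshold 0.05). The fit was tested on simulated data with independent noise per gene and library. That simulation does not cover libraries that stand apart, as NC 3 and mimic 3 did. Library depth was read from the whole-number steps of low values (up to 20 fragments, tolerance 0.1 fragment) with GENCODE M21 exon lengths (GRCm38), which hold 16582 of the 16665 gene IDs. Between 98.67% and 99.08% of those values came out whole. Annotated exon lengths and the GC content of the longest transcript of each gene also gave the trend removed in some alternatives (splines with 3 degrees of freedom).

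Groups shared replicate numbers. The correlations of deviations from the group mean between same-numbered libraries were 0.287, 0.183 and 0.339. Among differently numbered libraries NC 2 and mimic 1 reached 0.308, NC 1 and mimic 2 reached 0.0869, and the other 4 were below 0. The labels do not say what a shared number marks. Since each same-numbered value was above 0.1, the numbers entered an alternative as a block. Whether the numbers pair the libraries could not be decided from these values. NC 2 correlated more with mimic 1 (0.308) than with mimic 2 (0.183). Deviations within a group sum to 0, so a shift shared by NC 3 and mimic 3 alone raises the correlations among numbers 1 and 2. Other alternatives were another pseudocount (0.1), other filters, quantile and median ratio scaling, array weights, voom on recovered fragments, and each library left out. The comparisons without both number 3 libraries, and without mimic 3 with the trend removed, were added after the data were seen.

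The genes, role groups and pathway lists were chosen with earlier results of these data known, so lists are described by counts and medians with no test. Values per library were given for the 3 genes with the smallest p of each role group (2 in groups under 6), and for the most abundant gene of each. From each further list up to 3 genes with the smallest p were named with their estimates, of which 1 is not reported here. Promoters and microRNA are from RefSeq (GRCm38.p6).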

Additional observations from a re-analysis of the deposited data

How the results depend on the processing

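No replication gene passed the limma test with all 6 libraries, nor with a pseudocount of 0.1, other filters, quantile or median ratio scaling, voom, or the length and GC trend removed, and the same held for the count over all genes (1344 at an unadjusted p under 0.05, 1392 in voom). With the replicate block, which cannot move an estimate in this balanced design (median -0.03), 0 genes passed, and 1682 of all tested genes had an unadjusted p under 0.05, or 1503 with the replicate block and the trend removed. With 1 library left out, 0 to 8 replication genes and 0 to 2412 of all genes passed, and 8 and 2412 are the counts without NC 3. With the trend removed and no NC 3, 314 of all genes passed, and the medians of the polymerase and nucleotide supply groups were -0.24 and -0.31. Array weights gave NC 3 a weight of 0.086 and stopped short of their tolerance. They called 23 of the 50 tested replication genes, 7 higher and 16 lower in the mimic libraries. Beside these they called 5276 of all 10166 tested genes, 2830 higher and 2446 lower. Without both number 3 libraries 21 replication genes and 4377 of all genes passed, and with the trend also removed 6 and 1972. The called direction differed from the estimate over 6 libraries for Pcna without both number 3 libraries (0.198), Rfc4 under array weights (0.297) and Rrm1 without both and with the trend removed (-0.377). The cause was not tested. Among the 50 estimates 10 to 16 changed sign with 1 library left out, 10 with the trend removed, and 9 under either scaling. The least covered tested replication gene had 804 fragments over the 6 libraries, while Fen1, with 23, was too low to test.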
